A study of Homo sapiens with 10 samples.

Results

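Among hTERT RPE-1 cells cultured on a stiff substrate (120 kPa), libraries of the same treatment but of different replicate number differed in inflammatory, stress, p53, mitotic and mitochondrial genes. The libraries described are the 6 at this stiffness, 3 labelled Control and 3 labelled siNemp1, out of 10 in the series. The description sets the 2 libraries numbered 3 against the 2 numbered 1, with treatment as a term, and looks at the 2 numbered 2 as a possible intermediate. The comparison was selected on the gene counts of these same libraries, where the difference had been seen, so its sizes and counts are a description, no test of it is offered, and nothing is read from how many genes it calls.

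hTERT RPE-1 cells derive from human retinal pigment epithelium, were immortalised with telomerase and are a single established line. The siNemp1 libraries come from cells given small interfering RNA against NEMP1, which encodes a protein of the inner nuclear membrane. The labels say of the other arm only that it is Control (its RNA, if any: not given in the sources used here). A further 4 libraries, 2 Control and 2 siNemp1, come from a soft substrate (10 kPa) and played no role in choosing the comparison. A replicate number could stand for a day, a dish or a passage (not given in the sources used here) and serves only as a name. Because nothing says that replicates came from separate cultures, a p-value here speaks only to how far these libraries scatter, and that scatter may be technical.

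Several well-known programmes serve as a frame. NF-kB is a transcription factor that, when released from its inhibitor, turns on chemokine and cytokine genes along with its own inhibitors. p53 responds to DNA damage and other stress by inducing genes of cell cycle arrest and death, and ATF4 responds to amino acid shortage and unfolded protein by inducing amino acid synthesis and transport. Genes of mitosis are expressed late in the cell cycle and are low in cells that have stopped dividing. The respiratory chain is assembled from a few subunits encoded by the mitochondrial genome and many encoded in the nucleus.

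The promoters of these groups carry recognisable elements, and 3 promoters per group are shown where the group is described. Each stretch is RefSeq sequence on GRCh38.p14, read 5′ to 3′ along the gene's strand, with the element in capitals and positions counted from the annotated start of transcription. A match to the letters is a description of the sequence and not a bound site.

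Expected counts, the authors' estimates of reads per gene, summed to between 17.9 and 23.8 M per library, and 13362 of 40664 genes were high enough to be tested at 120 kPa. Levels below are CPM (counts per 1000000 after TMM scaling), which can be compared between libraries but not between genes of different length. Cell type markers are the exception: their CPM were not TMM-scaled. NEMP1 was at 18.9, 13.9 and 14 CPM in control libraries 1, 2 and 3 and at 7.32, 6.65 and 4.11 CPM in siNemp1 libraries 1, 2 and 3, so the labels and the targeted gene match in all 6. Of the markers of the labelled origin, MITF, OTX2 and BEST1 were present. MITF was at 140.0, 106 and 87.2 CPM in control and 143, 113 and 85.1 CPM in siNemp1 libraries, and BEST1 at 57.5, 92.8 and 93.6 CPM in control and 53.8, 73.4 and 65.0 CPM in siNemp1. RPE65, RLBP1 and TTR, which mark mature pigment epithelium, were at 0 or below 0.1 CPM, as were the epithelial gene CDH1 and the pigment gene DCT. The epithelial keratin KRT8 was at 867, 1215 and 1112 CPM in control and 1021, 1111 and 793 CPM in siNemp1. KRT7 and the tight junction gene CLDN1 were higher in library 3 than in library 1 of both treatments, CLDN1 at 24.6 against 11.01 CPM in control and at 104.6 against 11.4 CPM in siNemp1. KRT18 was at 789.6 against 499.9 CPM in control libraries 3 and 1. In siNemp1 it was at 578 against 505 CPM, with TMM factors of 1.05 and 0.928, so that gap is uncertain.

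The first principal component of the 6 libraries held 41.3% of the variance and separated the numbers within each treatment. Its scores were −44.3, −8.04 and 23.0 in control libraries 1, 2 and 3, and −24.8, 9.48 and 44.7 in siNemp1 libraries 1, 2 and 3. Within each treatment library 2 lay between the other two, and siNemp1 libraries scored higher than the control libraries of the same number. Across 13362 genes, the difference between libraries 3 and 1 had the same sign in both treatments for 9566 (71.6%). The control and siNemp1 differences, which share no library, correlated across genes with a Pearson r of 0.486 and a Spearman rho of 0.563. Genes are not independent replicates, so these coefficients describe the pair of differences and carry no p-value. The SD of the log2 difference across genes was 0.70 in control and 0.71 in siNemp1, against 0.41 and 0.42 between the libraries numbered 2 and 1 at 10 kPa. The stiff libraries 3 and 1 were chosen for their gap, so these are unlike pairs. For libraries 2 and 1, the mean chi-square per gene gives the gap relative to counting noise. It was 38.7 in control and 21.5 in siNemp1 at 120 kPa, and 2.665 and 6.58 at 10 kPa. The stiff libraries 2 and 1 also took part in selecting the comparison, so these values too are only a description of unlike pairs.

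**Figure D1:**
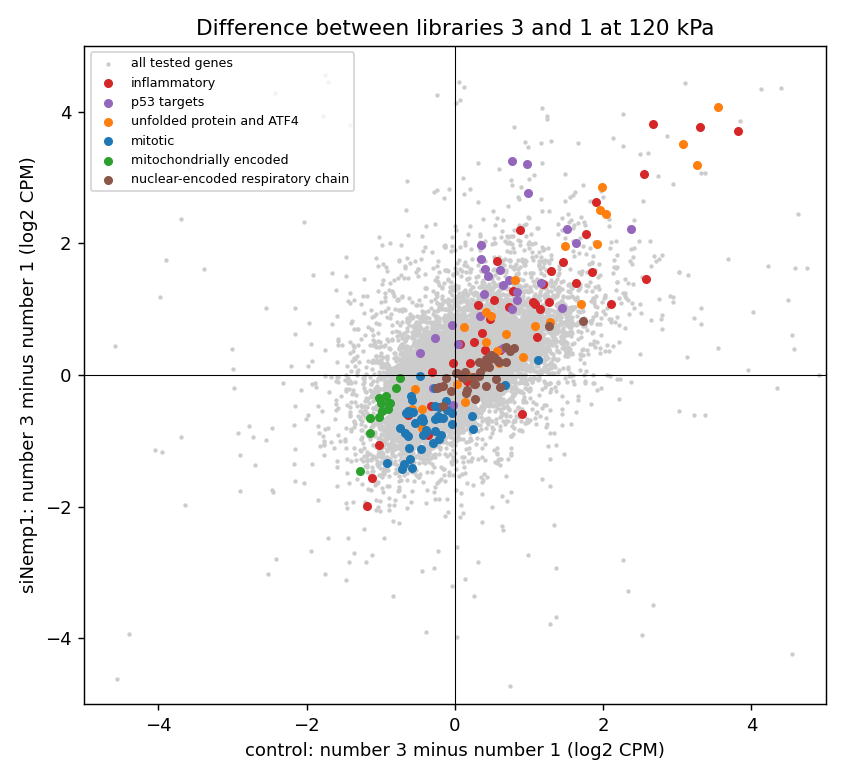
Each point is 1 of the tested genes, with the log2 CPM difference between control libraries 3 and 1 at 120 kPa on the x axis and the same difference in siNemp1 libraries on the y axis; colours mark genes of the lists described in the text, and 14 genes fall outside the plotted limit of 5. Inflammatory, ATF4 and p53 genes lie mostly to the upper right, and mitotic and mitochondrially encoded genes to the lower left.

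A gene was counted as apart when libraries 3 and 1 differed at least 1.5-fold in the same direction in control and in siNemp1. By that measure 1239 genes (9.27%) were higher and 691 (5.17%) were lower in the libraries numbered 3. A fit over all 6 libraries with treatment and number as factors called 1867 genes higher (14%) and 1527 lower (11.4%) at an adjusted p under 0.05, together 3394 (25.4%). In opposite directions in the 2 treatments, 208 genes differed at least 1.5-fold. The median log2 difference of all genes was −0.02 in control and 0.04 in siNemp1, so the lists below are read against a centre near 0.

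Library 2 held an intermediate value in both treatments for 4083 genes (30.6%), in control for 52.5% and in siNemp1 for 50.7% of all genes. Of the 1930 genes that were at least 1.5-fold apart in both treatments it was 1276 (66.1%), a share that a wide gap raises by construction. Where 0 is the value of library 1 and 1 that of library 3, the genes higher in libraries 3 had library 2 at a median of 0.67 in control and 0.63 in siNemp1. The lower genes had it at 0.47 in control and 0.33 in siNemp1. Between libraries 2 and 1 the same fit called 493 genes (3.69%), 486 higher (3.64%) and 7 lower (0.0524%).

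The inflammatory list showed many of the widest differences. Of its 52 genes 41 were tested, and 20 were at least 1.5-fold higher and 4 at least 1.5-fold lower in libraries 3 than in libraries 1 in both treatments, beside 9.27% and 5.17% of all genes. The median log2 difference of the 41 was 0.78 in control and 1.07 in siNemp1. An NF-kB consensus element stood in 12 of the 32 matched promoters of tested members (37.5%), and in 5.91% of all 35116 promoters of the same length (250 bases before the start to 50 after), searched on both strands. CXCL8 and IL1B, among the widest differences, had no match, while VCAM1, lower in libraries 3, had a match. The 3 promoters shown belong to a chemokine, a cytokine and the inhibitor of NF-kB itself, and the capitals mark the element (in CXCL3, overlapping matches on both strands). They lie at chr4:74038726-74038800 on the minus strand, chr7:22727095-22727168 on the plus strand and chr14:35404789-35404862 on the minus strand.
CXCL3: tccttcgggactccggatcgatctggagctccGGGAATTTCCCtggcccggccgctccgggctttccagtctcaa
IL6: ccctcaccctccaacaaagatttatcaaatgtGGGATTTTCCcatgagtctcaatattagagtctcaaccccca
NFKBIA: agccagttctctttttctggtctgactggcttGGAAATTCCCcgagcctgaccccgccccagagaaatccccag

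Among chemokines, which attract leukocytes, 4 of 7 were at least 1.5-fold higher in both treatments and none lower. CXCL8, the neutrophil chemokine interleukin 8 (chromosome 4, 73740506 to 73743716, GRCh38), was at 7.48, 37.7 and 107 CPM in control libraries 1, 2 and 3 and at 12.3, 92.6 and 162 CPM in siNemp1 libraries 1, 2 and 3. The number 1 libraries were the lowest and the number 3 libraries the highest in each treatment, and the 2 pairs did not overlap. The log2 difference between libraries 3 and 1 was 3.82 in control and 3.70 in siNemp1, a mean fold of 13.6. CXCL3, whose promoter is shown above, was at 0.655, 2.19 and 7.34 CPM in control and 1.29, 5.29 and 18.7 CPM in siNemp1 libraries. CXCL1 was at 5.84, 10.5 and 14.6 CPM in control and 6.93, 17.2 and 21 CPM in siNemp1, and CXCL2 showed the same order at lower levels. The monocyte chemokine CCL2 was weaker, with log2 differences of 1.10 in control and 0.58 in siNemp1.

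Cytokines were split. 7 of 10 were at least 1.5-fold higher in libraries 3 in both treatments and 2 were lower. IL1B, a cytokine that itself activates NF-kB, was at 7.95, 19.0 and 51.1 CPM in control and 4.49, 25.3 and 64.7 CPM in siNemp1 libraries 1, 2 and 3. IL6 was at 15.5, 26.6 and 48.2 CPM in control and 14.2, 29.95 and 37.6 CPM in siNemp1. CSF2, LIF and IL1A were likewise higher in libraries 3 of both treatments. IL1A, TNFSF15 and IL11, all counted among the 7, were scarce, averaging 0.852, 0.994 and 1.20 CPM, so their folds rest on few counts. The 2 lower members were both alarmin cytokines of epithelia. IL33 was at 779, 566 and 360.0 CPM in control and 693, 528 and 233 CPM in siNemp1, and TSLP was at 206, 149 and 102 CPM in control and 184, 134 and 87.8 CPM in siNemp1. Within 1 list, then, IL33 was 2.53-fold lower where CXCL8 was 13.6-fold higher.

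Of 10 NF-kB subunits and feedback regulators, 6 were at least 1.5-fold higher in both treatments. NFKBIA, the inhibitor that NF-kB induces, was at 17.3, 81.1 and 103 CPM in control and 31.7, 88.5 and 87.7 CPM in siNemp1 libraries, so in siNemp1 libraries 2 and 3 were level. NFKB2 was at 3.88, 7.0 and 9.48 CPM in control and 4.06, 8.01 and 8.87 CPM in siNemp1, while NFKB1 differed by only 0.06 and 0.47 log2. Receptors and adhesion molecules showed no common direction: VCAM1 was lower in libraries 3 (log2 −1.18 in control and −1.99 in siNemp1) and ICAM1 higher (0.47 and 0.86). Among effectors, the pattern recognition protein PTX3 was 1.08 higher on the log2 scale in both treatments. SAA2 and MMP1, also counted as higher in both, were scarce, averaging 1.49 and 0.573 CPM. SOD2, a mitochondrial superoxide dismutase and a common NF-kB target, differed by −0.31 and 0.05, and PTGS2 was between 3.89 and 5.85 CPM in all 6 libraries.

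The list of unfolded protein and ATF4 genes divided by arm. Of 27 tested members 13 were at least 1.5-fold higher and none lower in both treatments, beside 9.27% and 5.17% of all genes. The median log2 difference was 0.69 in control and 0.75 in siNemp1. The letters TGATGNAA, the core of the element that ATF4 binds with a C/EBP partner, stood on either strand in 5 of 24 matched promoters (20.8%) and in 3.62% of all promoters. TRIB3 and PSAT1, also higher in libraries 3, had no match. The 3 shown encode a transcription factor, a glutathione-degrading enzyme and asparagine synthetase, each among the wide differences below. They lie at chr1:212565184-212565255 on the plus strand (match at −191), chr15:40953230-40953301 on the plus strand (match at −209, on the opposite strand) and chr7:97872437-97872508 on the minus strand (match at −68).
ATF3: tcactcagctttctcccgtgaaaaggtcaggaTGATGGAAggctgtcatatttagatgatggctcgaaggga
CHAC1: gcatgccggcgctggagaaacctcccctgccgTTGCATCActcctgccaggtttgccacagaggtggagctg
ASNS: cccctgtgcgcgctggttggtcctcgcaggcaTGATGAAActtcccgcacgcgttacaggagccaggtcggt

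Several genes downstream of ATF4 were higher in libraries 3. TRIB3, a pseudokinase induced by ATF4 (chromosome 20, 362835 to 397559, GRCh38), was at 11.5, 51.4 and 112 CPM in control libraries 1, 2 and 3 and at 18.3, 60.3 and 169 CPM in siNemp1. Neither pair overlapped with the other, and library 2 stood between them in each treatment. ATF3 was at 0.842, 4.21 and 10.8 CPM in control and 1.00, 6.12 and 18.3 CPM in siNemp1, a mean fold of 14. DDIT3, the stress factor CHOP, was at 51.0, 80.4 and 143 CPM in control and 60.6, 89.6 and 236 CPM in siNemp1. ATF4 itself, which is regulated largely through translation, differed by 0.42 in control and 0.50 in siNemp1 on the log2 scale.

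Amino acid synthesis and transport genes showed the same order. ASNS was at 20.8, 37.8 and 81.0 CPM in control and 25.8, 56.0 and 146 CPM in siNemp1 libraries. PSAT1, of serine synthesis, was at 31.5, 59.1 and 129 CPM in control and 37.8, 90.4 and 207 CPM in siNemp1. SLC7A5, the large neutral amino acid transporter, was at 15.2, 47.3 and 102 CPM in control and 14, 52.0 and 115 CPM in siNemp1, a mean fold of 7.37. CBS, of cysteine synthesis, and the secreted glycoprotein STC2 also belonged to the widest differences, with log2 values of 2.27 and 1.99 in control and 3.48 and 2.86 in siNemp1. The cystine transporter SLC7A11 was an exception, at 62.7, 63.3 and 70.1 CPM in control and 53.9, 55.6 and 53.9 CPM in siNemp1.

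Chaperones of the endoplasmic reticulum were mixed. DNAJB9, a co-chaperone, was at 16.7, 18.8 and 27.0 CPM in control and 27.1, 39.2 and 41.7 CPM in siNemp1 libraries, and SDF2L1 differed by log2 0.59 in control and 0.18 in siNemp1. HSPA5, the main chaperone of that compartment, was at 2289.7, 2451 and 2337 CPM in control and 2084, 2242 and 1889 CPM in siNemp1 libraries. HSP90B1 was lower in libraries 3 by log2 −0.58 in control and −0.52 in siNemp1, and CALR by −0.44 and −0.80. XBP1, a transcription factor of the unfolded protein response, was at 18.2, 32.4 and 44.5 CPM in control and 31.4, 46.4 and 54.7 CPM in siNemp1.

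p53 target genes were higher in libraries 3, more so by median in siNemp1 (log2 1.37) than in control (0.65); that gap was not tested. Beside 9.27% of all genes higher and 5.17% lower, 14 of 27 tested members were at least 1.5-fold higher in both treatments and none lower. By role these were 4 of 7 arrest genes, 7 of 11 death genes, 2 of 7 repair or metabolism genes and 1 of 2 feedback genes. CDKN1A, the cell cycle inhibitor p21 (chromosome 6, 36676460 to 36687339, GRCh38), was at 269, 502 and 836 CPM in control libraries 1, 2 and 3 and at 316, 654 and 1274 CPM in siNemp1. The 2 number 3 libraries were the highest of the 6 and the 2 number 1 libraries the lowest. The mean fold between them was 3.54.

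Other p53 targets followed with uneven size. AEN, an apoptosis-enhancing nuclease, was at 23.0, 35.5 and 65.7 CPM in control and 26.6, 50.5 and 124 CPM in siNemp1 libraries. FDXR, ferredoxin reductase, differed by log2 2.38 in control and 2.22 in siNemp1. GADD45A, which is counted in the YAP/TAZ list and not in the p53 list, differed by 1.82 and 2.65. BTG2, an antiproliferative gene, was at 11, 15.2 and 21.7 CPM in control and 10.9, 25.6 and 102 CPM in siNemp1, so siNemp1 library 3 stood apart from the other 5. The death receptor gene FAS showed the same shape, at 23.4, 22.6 and 30.9 CPM in control and 28.9, 34.8 and 88.9 CPM in siNemp1. MDM2, the ubiquitin ligase that degrades p53, was at 165, 125 and 160.4 CPM in control and 145, 154 and 246 CPM in siNemp1, a log2 difference of −0.04 in control. PLK2 and CCNG1 were not higher in libraries 3 of either treatment. GDF15, a stress cytokine counted among the 14, was scarce, at 0.187, 0.547 and 0.461 CPM in control and 0.335, 0.243 and 2.81 CPM in siNemp1, so its fold rests on few counts. The same holds for BBC3, also among the 14, which averaged 0.481 CPM.

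Mitotic genes were lower in libraries 3, with a median log2 difference of −0.43 in control and −0.67 in siNemp1 over 43 tested members. At least 1.5-fold lower in both treatments were 8 of the 43, beside 5.17% of all genes, and none was higher. 7 of these 8 belong to the 17 genes of the spindle and cytokinesis, and no cyclin, kinase or checkpoint gene reached 1.5-fold in both. Some fell just short: BUB1 differed by log2 −0.58 in control and −1.41 in siNemp1, TTK by −0.66 and −0.58, and CDC25C by −0.62 and −0.58. The split by role thus depends on the threshold. A cell cycle genes homology region, read as TTTGAA or TTCGAA on either strand, stood in 28 of 37 matched promoters (75.7%) and in 16.4% of all promoters. KIF20A, lower in library 3 of both treatments, had no match, while CENPA, higher in both, had a match. The 3 shown are promoters of spindle and cytokinesis genes and lie at chr7:36389804-36389861 on the plus strand, chr14:55191657-55191755 on the minus strand and chr15:69414262-69414331 on the plus strand. In the first, a pair of matches on opposite strands runs together.
ANLN: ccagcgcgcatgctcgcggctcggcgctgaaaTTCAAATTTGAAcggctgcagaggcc
DLGAP5: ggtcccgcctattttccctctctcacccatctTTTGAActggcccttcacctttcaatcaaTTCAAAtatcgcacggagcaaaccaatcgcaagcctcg
KIF23: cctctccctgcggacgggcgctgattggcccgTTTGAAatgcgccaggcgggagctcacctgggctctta

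ANLN, the actin-binding scaffold of the cytokinetic ring (chromosome 7, 36389806 to 36453791, GRCh38), was at 203, 126 and 108 CPM in control libraries 1, 2 and 3 and at 149, 115 and 58.8 CPM in siNemp1. DLGAP5, a spindle assembly factor, was at 63.9, 44.2 and 38.8 CPM in control and 54.0, 42.2 and 19.99 CPM in siNemp1. KIF23, a kinesin of the central spindle, was at 78.9, 56.3 and 51.9 CPM in control and 49.1, 29.6 and 20.2 CPM in siNemp1. In these genes library 1 was the highest of its treatment, and in control libraries 2 and 3 were close to each other. TOP2A, which untangles chromosomes, differed by log2 −0.63 in control and −0.92 in siNemp1.

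The cyclin and kinase genes were less uniform. CDK1 was at 36.0, 24.6 and 29.3 CPM in control and 46.9, 33.4 and 22.8 CPM in siNemp1 libraries, and CCNB1 at 139, 101 and 116 CPM in control and 187, 143 and 104 CPM in siNemp1. In control, then, library 2 was the lowest for both. The proliferation marker MKI67 differed by −0.18 in control and −0.91 in siNemp1. CDC20 and BIRC5 had opposite signs, at log2 0.23 and 0.24 in control and −0.63 and −0.82 in siNemp1. In control, then, spindle genes were lower in library 3 while several regulators were not.

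All 13 mitochondrially encoded protein genes were lower in library 3 than in library 1 of both treatments. Their median log2 difference was −0.99 in control and −0.43 in siNemp1. Of the 13, 4 were at least 1.5-fold lower in both treatments, beside 5.17% of all genes. MT-CO1, a core subunit of cytochrome oxidase (mitochondrial genome, 5904 to 7445), was at 3767, 3119 and 1557 CPM in control libraries 1, 2 and 3 and at 2670.1, 1419.5 and 974 CPM in siNemp1. MT-ND5, of complex I, was at 1708, 1241 and 772 CPM in control and 950.2, 699 and 603 CPM in siNemp1. MT-CYB, of complex III, was at 1998, 1517 and 1006 CPM in control and 1172, 911 and 872 CPM in siNemp1, so that siNemp1 library 1 was closer to control library 3 than to control library 1. MT-ND1 reached a log2 difference of −0.74 in control but only −0.04 in siNemp1. All reads assigned to mitochondrially encoded genes together made up 1.73, 1.40 and 0.913% of the control libraries and 1.06, 0.826 and 0.709% of the siNemp1 libraries.

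Nuclear-encoded subunits of the same complexes did not follow. Of 37 tested, 2 were at least 1.5-fold higher and none lower in both treatments, beside 9.27% and 5.17% of all genes. The median log2 difference was 0.33 in control and 0.03 in siNemp1. NDUFA4, a subunit of complex IV, was at 53.3, 66.1 and 129 CPM in control and 97.1, 116 and 162 CPM in siNemp1 libraries. CYC1, cytochrome c1 of complex III, was at 43.5, 86.5 and 144 CPM in control and 101, 138 and 177 CPM in siNemp1. SDHA, the flavoprotein of complex II, was at 400.0, 397 and 339 CPM in control and 377, 355 and 329 CPM in siNemp1. TFAM, which packages and transcribes mitochondrial DNA, was between 13.1 and 22.9 CPM, with log2 differences of −0.03 and 0.14. The list of genes for maintaining and expressing the mitochondrial genome had 3 of 23 members at least 1.5-fold higher and none lower in both treatments. Neither this count nor that of the nuclear-encoded subunits is far above the share of all genes, so neither sets its list apart. The nuclear-encoded median was carried by the control libraries: with control library 3 left out it was 0.01, and with siNemp1 library 1 left out 0.34.

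**Figure D2:**
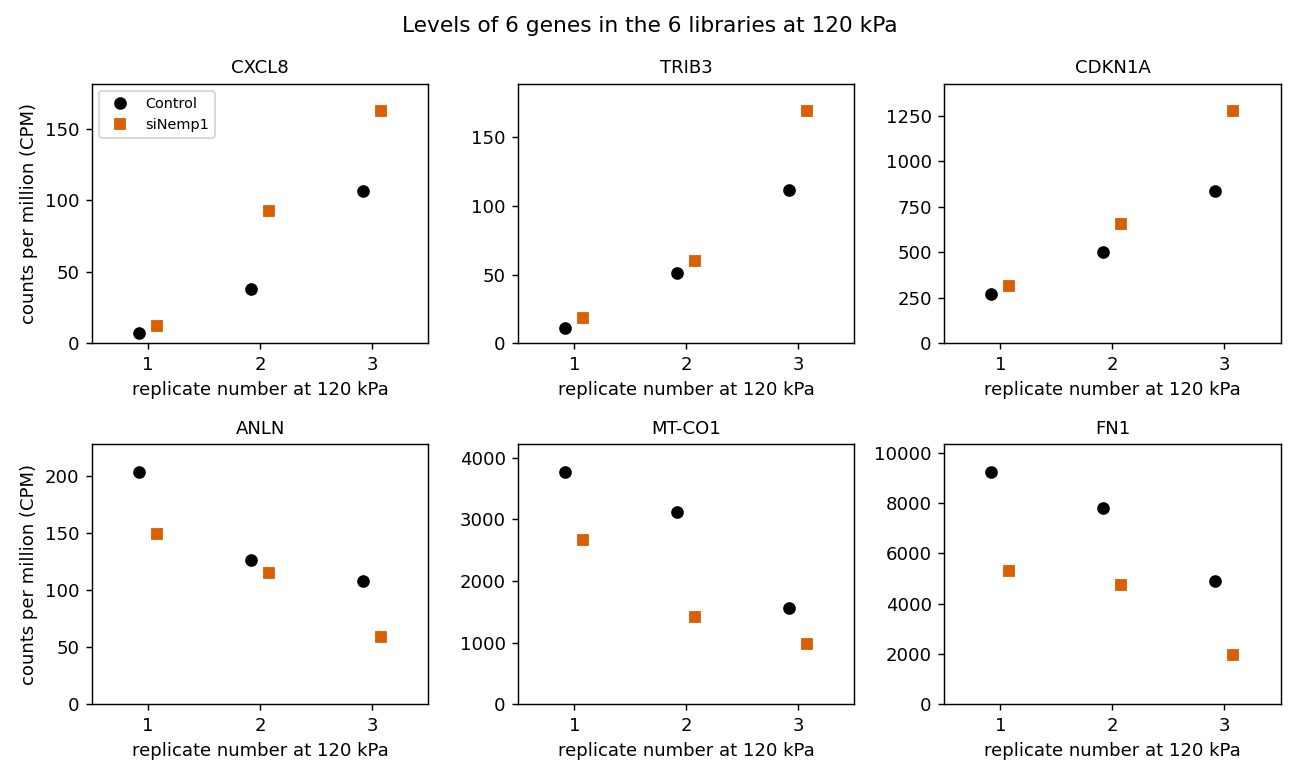
CPM of 6 genes (linear y axes from 0) in each library at 120 kPa, by replicate number on the x axis; circles are control and squares siNemp1, 1 library each. CXCL8, TRIB3 and CDKN1A are highest in the libraries numbered 3 and ANLN, MT-CO1 and FN1 lowest, in each treatment.

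Outside the lists, SERPINB2, an inhibitor of plasminogen activators, had one of the largest mean folds among genes with at least 10 CPM on average. It was at 2.71, 17.4 and 58.9 CPM in control libraries 1, 2 and 3 and at 3.06, 26.7 and 64.8 CPM in siNemp1, a mean fold of 20.8. RAB5IF, at 6.31, 26.1 and 43.0 CPM in control and 11.3, 37.5 and 38.7 CPM in siNemp1, and GAA were also among the 12 highest. The value of GAA is uncertain, since it was at 0 CPM in control library 2 and in siNemp1 library 1 and at 28.4 to 36.1 CPM in 3 other libraries.

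FN1, fibronectin (chromosome 2, 215360440 to 215436172, GRCh38), was at 9218, 7784 and 4913 CPM in control and 5281, 4739 and 1948 CPM in siNemp1 libraries. Among the 12 lowest genes, CD36, a scavenger receptor, was at 43.4, 31.8 and 19.0 CPM in control and 41.1, 30.9 and 15.6 CPM in siNemp1. F2RL2, a protease-activated receptor, was at 461, 326 and 195 CPM in control and 530.0, 399.7 and 214 CPM in siNemp1. The succinate receptor SUCNR1, the growth factor receptor PDGFRA, the ephrin receptor EPHA3, the cadherin CDH18, the glutamate receptor subunit GRIN2A, the protease inhibitor A2M, OLFML3 and UGT1A7 completed the 12 lowest together with IL33 and MT-CO1. UGT1A7 shares exons with neighbouring genes of its family, so its count is uncertain. Of 21 matrix genes, 5 were at least 1.5-fold lower and 1 higher in both treatments, beside 5.17% and 9.27% of all genes.

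The remaining lists are given by the same counts, to be read against 9.27% of all genes higher and 5.17% lower. Immediate early genes were at least 1.5-fold higher in both treatments for 11 of 22, among them JUN at 2.52, 11 and 13.9 CPM in control and 4.21, 10.9 and 16.2 CPM in siNemp1, while FOS was between 2.84 and 3.85 CPM. YAP/TAZ targets, which respond to substrate stiffness, had 5 of 23 higher and 1 lower. CCN1, one of them, was at 39.3, 103 and 119 CPM in control and 48.2, 109 and 227 CPM in siNemp1. Of 15 histone genes 8 were higher and none lower. Cholesterol genes were lower for 4 of 17 and higher for 1. The DNA replication list had 4 of 34 higher and 4 lower, and the hypoxia list 3 of 25 lower and none higher. The count of higher DNA replication genes is near the share of all genes, and all of these last counts rest on few genes. The median log2 differences of the 3 lists were below 0 in both treatments. They were −0.31 in control and −0.69 in siNemp1 for cholesterol, −0.19 and −0.68 for DNA replication, and −0.27 and −0.37 for hypoxia.

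Interferon-induced genes had a median log2 difference of 0.18 in control and −0.42 in siNemp1. IFI6 was at 36.0, 91.9 and 188 CPM in control and 41.0, 61.0 and 38.0 CPM in siNemp1 libraries, and ISG15 at 8.84, 26.3 and 55.8 CPM in control and 13.7, 19.7 and 24.6 CPM in siNemp1. Control library 3 was the highest of the 6 for both genes. The difference between treatments was not tested.

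The soft libraries place the numbers on a common scale. Each list was summarised as the mean log2 CPM of its genes, relative to the mean of the 6 stiff libraries. The ATF4 list stood at −0.56, −0.54, −0.43 and −0.53 in the 4 soft libraries, at −0.68, −0.07 and 0.36 in stiff control libraries 1, 2 and 3, and at −0.39, 0.15 and 0.63 in stiff siNemp1 libraries. The p53 list stood between −0.47 and −0.33 in the soft libraries, at −0.53, −0.23 and 0.16 in stiff control and at −0.39, 0.05 and 0.94 in stiff siNemp1. In both lists, and in the inflammatory list, the stiff libraries numbered 1 were near the soft ones and those numbered 3 were far from them. The mitotic list had the reverse order, at 0.13 to 0.28 in the soft libraries, at 0.30, 0.05 and 0.02 in stiff control and at 0.26, −0.11 and −0.51 in stiff siNemp1. The mitochondrially encoded list departed from this in 1 library, since siNemp1 library 1 was at 0.03 while the soft libraries were at 0.35 to 0.55 and stiff control library 1 at 0.69. The nuclear-encoded respiratory chain list was level over the siNemp1 numbers, at 0.20, 0.18 and 0.19, and stood at −0.38, −0.27 and 0.08 in the control ones.

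**Figure D3:**
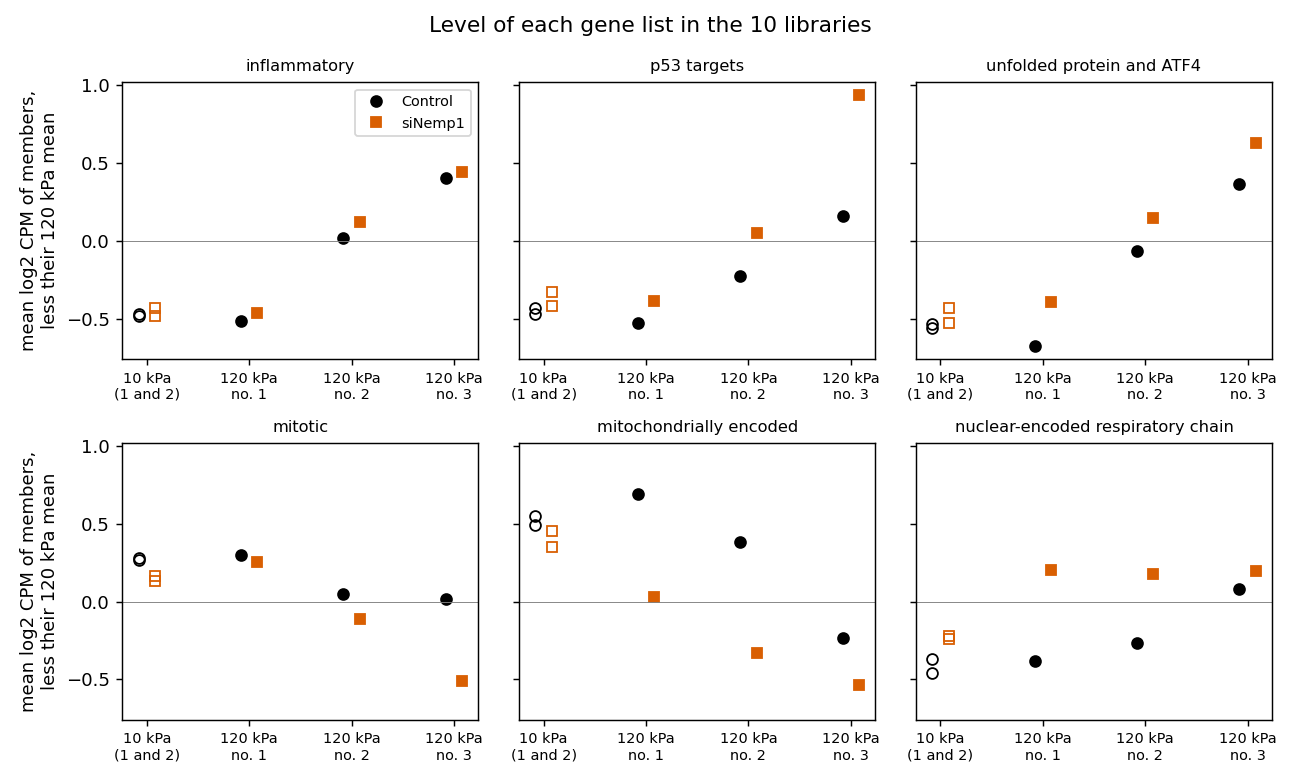
Mean log2 CPM of 6 gene lists in each of the 10 libraries, relative to the mean of the 6 libraries at 120 kPa; open symbols are the 4 libraries at 10 kPa, filled symbols those at 120 kPa by replicate number, circles control and squares siNemp1. The open symbols lie together near the filled symbols of number 1 in the inflammatory, ATF4 and p53 lists.

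Single genes kept to this placing less closely. On the scale of all 10 libraries CXCL8 was at 3.41, 2.80, 7.55 and 6.36 CPM in the soft libraries (control, then siNemp1) and at 7.24 and 12.7 CPM in the stiff libraries numbered 1. TRIB3 was at 20.5, 19.7, 21.3 and 18 CPM in the soft libraries and at 11.2 and 18.8 CPM in the stiff ones numbered 1. ANLN was at 165, 176, 155 and 155 CPM in the soft libraries and at 197 and 153 CPM in the stiff ones numbered 1. NFKBIA was at 41.7, 53.5, 60.9 and 27.3 CPM in the soft libraries and at 16.7 and 32.6 CPM in the stiff ones numbered 1. So TRIB3 and NFKBIA in stiff control library 1 were below every soft library, and CXCL8 in it was above both soft control libraries. JUN was at 7.55, 5.55, 6.46 and 5.0 CPM in the soft libraries and at 2.44 and 4.33 CPM in the stiff ones numbered 1. The immediate early list, to which JUN belongs, stood at 0.16, 0.04, −0.15 and −0.42 in the soft libraries and at −0.53 and −0.58 in the stiff libraries numbered 1.

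The libraries at 10 kPa were not used to choose the comparison, so the difference between their numbers could be tested. In edgeR's quasi-likelihood test with treatment and number as factors, 11 of 13345 genes (0.0824%) passed between the libraries numbered 2 and 1 (p adjusted by Benjamini-Hochberg, threshold 0.05). These calls were not stable: without the treatment term there were 0, and DESeq2 made 1. Of these 5 were higher (0.0375%) and 6 lower (0.045%) in the libraries numbered 2, and 581 genes had an unadjusted p under 0.05. No member of the 18 gene lists was among the 11. The calls included genes whose names join a pair of neighbours, where shared exons make the assignment of reads uncertain. RPL36A-HNRNPH2 was at 7.29 and 11.7 CPM in control libraries 1 and 2 and at 4.43 and 11.2 CPM in siNemp1 (log2 1.00 ± 0.18 SE, edgeR's quasi-likelihood test, adjusted p = 0.031). BLOC1S5-TXNDC5 was listed at 4.37 and 18.4 CPM in the libraries numbered 1 and at 0 in those numbered 2. The dispersion common to all genes, a measure of spread between libraries beyond counting noise, was 0.00442 at 10 kPa and 0.0168 at 120 kPa with both factors in the model.

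The spread between numbers entered the comparison of siNemp1 with control at 120 kPa. With treatment alone in the model the common dispersion was 0.0525, and the quasi-likelihood test of edgeR gave 0 calls among 13362 genes (0%), with a lowest adjusted p of 0.323 and 1451 genes at an unadjusted p under 0.05; DESeq2 called 70. With the replicate number as a block it called 1255 (9.39%), 799 higher (5.98%) and 456 lower (3.41%) in siNemp1. The deviations of same-numbered libraries from their treatment mean correlated across genes at 0.494, 0.169 and 0.392 for numbers 1, 2 and 3, and those of differently numbered libraries at −0.460 to 0.056. Deviations from a mean cancel within a treatment, so positive values for same-numbered libraries bring negative ones for the others by construction.

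The block was adopted because same-numbered libraries deviated together in these same data. The p-values that follow depend on that choice, since edgeR's test without the block called 0 genes. Under the block, genes of the lists passed the treatment test in the following directions. FN1 fell in siNemp1 (log2 −0.95 ± 0.12 SE, edgeR's quasi-likelihood test, adjusted p = 0.013) and was lower in siNemp1 than in the control library of the same number in 3 of 3 pairs. Of the mitochondrially encoded genes 11 of 13 fell and none rose, for example MT-CO1 (−0.77 ± 0.12, adjusted p = 0.013 by the same test). Mitotic genes fell for 12 of 43, with KIF23 at −0.98 ± 0.13 (adjusted p = 0.013 by edgeR's test). CXCL8 rose by 0.88 ± 0.14 (adjusted p = 0.013), one of 3 of 41 inflammatory genes that rose while 2 fell, which is near the shares of all genes (5.98% and 3.41%). p53 targets rose for 6 of 27, CDKN1A by 0.41 ± 0.10 (adjusted p = 0.031), and ATF4 and unfolded protein genes rose for 7 of 27 and fell for 1. Nuclear-encoded respiratory chain genes rose for 17 of 37 and none fell. For CDKN1A the treatment difference was smaller than that between numbers, since siNemp1 library 1 at 316 CPM lay below control library 2 at 502 CPM.

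Stiff libraries of each number were also set against the 4 soft libraries, a comparison added after the data were seen. The 3 comparisons share the 4 soft libraries and use the libraries that defined the difference, so their values are given side by side as a description. The stiff pair numbered 1 gave 1629 called genes (11.5%), the pair numbered 2 gave 2088 (14.8%) and the pair numbered 3 gave 4912 (34.1%). All 6 stiff libraries together against the soft ones gave 1 (0.00715%). The median log2 difference of the inflammatory list was −0.03, 0.38 and 0.66 for numbers 1, 2 and 3. The p53 list had −0.03, 0.28 and 1.09, and the ATF4 list 0.03, 0.45 and 0.83. The mitochondrially encoded list had −0.08, −0.42 and −0.78 and the mitotic list 0.07, −0.30 and −0.43. Nuclear-encoded respiratory chain genes differed from the other lists, at 0.28, 0.24 and 0.39, with 15, 18 and 26 members called higher. The immediate early list had −0.36 for number 1 and 0.57 for number 3. For the other 5 lists the median of the stiff pair numbered 1 was within 0.1 of 0.

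**Figure D4:**
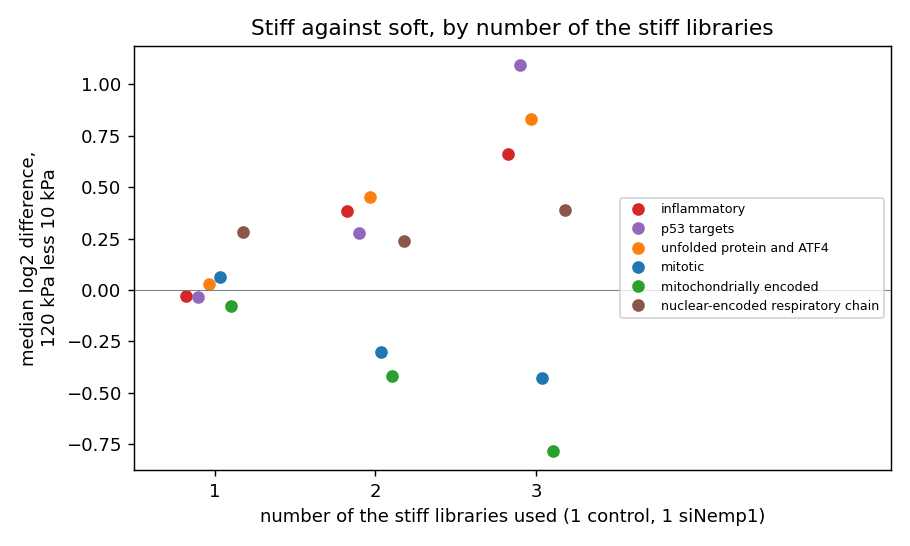
Median log2 difference between 120 kPa and 10 kPa of 6 gene lists, computed with the stiff libraries of 1 number at a time against the same 4 soft libraries. The medians for number 1 lie near 0 in 5 of the lists, and those for number 3 lie farthest from 0 in all 6.

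Several library properties moved with the number. The 100 most abundant genes took 37.5, 36.1 and 34.8% of the counts in control libraries 1, 2 and 3 and 37.3, 36.0 and 32.7% in siNemp1. Ribosomal RNA genes took 0.394, 0.304 and 0.229% in control and 0.255, 0.237 and 0.164% in siNemp1. Nearly all of this was mitochondrial ribosomal RNA, already part of the mitochondrial share given above. Genes of high GC content were relatively higher in libraries 3. In 5 equal groups of genes from low to high GC content, the median log2 difference in control was −0.25, −0.22, −0.13, 0.09 and 0.60, and in siNemp1 −0.10, −0.07, 0.01, 0.06 and 0.35. With trends on length and GC removed, the fit gave 2615 called genes, 1204 higher and 1411 lower, against 1867 higher and 1527 lower before. The list medians were then 0.89 for inflammatory (0.90 before), 1.07 for p53 (1.04 before) and 0.53 for ATF4 genes (0.69 before). They were −0.47 for mitotic (−0.56 before) and −0.56 for mitochondrially encoded genes (−0.70 before). The part of GC content in the differences of lists and of single genes was not tested.

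**Figure D5:**
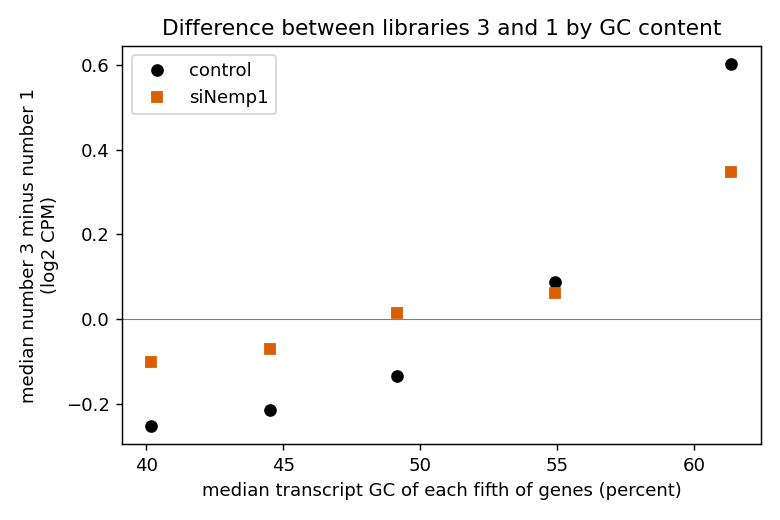
Median log2 difference between libraries 3 and 1 at 120 kPa in 5 equal groups of the tested genes by GC content of their transcripts, for control and siNemp1. The group of highest GC stands at 0.60 in control and 0.35 in siNemp1, and the 2 groups of lowest GC below 0.

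Of 35 ribosomal protein genes 3 were at least 1.5-fold higher and none lower in both treatments, a share of higher genes no larger than the 9.27% of all genes. By sign alone, 29 of the 35 were higher in library 3 of both treatments, beside 4855 of all 13362 genes. Their median log2 difference was 0.51 in control and 0.19 in siNemp1. RPS18, one of the proteins of the small subunit, was at 525, 753 and 1564 CPM in control and 1039.6, 1262 and 1843 CPM in siNemp1. GAPDH was lower by log2 −0.48 in control and −0.57 in siNemp1, and ACTB was at 24087, 23326 and 20222 CPM in control and 22770.1, 21219.8 and 15122 CPM in siNemp1.

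Markers of other cell types also differed between numbers, in CPM without TMM scaling. The 8 fibroblast markers, of which 5 exceeded 1 CPM, summed to 908, 892 and 705 CPM in control and 683, 591 and 330 CPM in siNemp1 libraries, most of it THY1 at 808, 767 and 618 and 583, 484 and 268 CPM. PDGFRA and DCN were also lower in library 3 of both treatments. COL1A1 went the other way, at 5.93 against 7.58 CPM in control libraries 1 and 3 and 3.83 against 8.35 CPM in siNemp1. PDGFRB was highest in library 2, at 52.9, 81.8 and 57.5 CPM in control and 60.2, 74.0 and 37.7 CPM in siNemp1. COL3A1 was at 0 in every stiff library. The leukocyte list summed to 1180, 964 and 737 CPM in control and 801, 702 and 521 CPM in siNemp1, nearly all of it CD68, a lysosomal gene that many cells express. CD3E and ITGAM were near 0, and PTPRC, the defining leukocyte gene, was between 0.517 and 1.5 CPM. CDH5 was at 0, and the 5 endothelial markers summed to at most 3.22 CPM. In bulk libraries of a single line, fewer cells expressing a marker and less of its RNA per cell cannot be told apart. The part of these markers in the list differences was not tested.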

How the data were processed

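RNA of hTERT RPE-1 cells was sequenced in 10 libraries, grouped by treatment, stiffness and replicate number from their titles. Per the labels, ribosomal RNA was removed from total RNA with RNase H and cDNA was primed with random hexamers (strandedness and transcript annotation: not given in the sources used here). Tools per the submitters' processing notes were Salmon 1.80 (version as they write it), Trimmomatic 0.33, FastQC 0.11.9 and an edgeR of no stated version, with GRCh38 as the build. The deposited table holds expected counts per gene, unscaled, for 40664 genes, and all 10 columns matched a library by title. A few list genes are not analysed here.

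Expected counts were rounded to whole numbers, filtered with filterByExpr on the treatment groups, scaled by TMM and fitted with edgeR 4.0.16 (quasi-likelihood, robust; limma 3.58.1, R 4.3.3), with treatment and replicate number as factors. The filter needs a gene to pass in as many libraries as a treatment has, so a gene high only in the pair numbered 3 can be missing. Tests were two-sided, with Benjamini-Hochberg adjustment across every tested gene and a threshold of 0.05. The 6 stiff libraries left 2 residual degrees of freedom (4 with treatment alone) and the 4 soft ones 1. Fold values per treatment are differences of log2 CPM with a prior count of 2. CPM in the soft libraries and in the list levels are on the scale of all 10 libraries or, in the test at 10 kPa, of the 4 soft ones. CPM of cell type markers were not TMM-scaled.

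Replicate numbers were taken to pair libraries because same-numbered libraries deviated together at every number (correlations of 0.494, 0.169 and 0.392 across genes); the pairing comes from the titles' numbers. Members, lists and tests were chosen with earlier results of these data known. Named genes were the 12 highest and 12 lowest by mean difference with at least 10 CPM, list members with the largest difference and at least 5 CPM, and a fixed set; members beyond it illustrate a role and were chosen after their values were seen. Promoters are RefSeq's on GRCh38.p14; gene positions, transcript length and GC content are from GENCODE 29, matched for 13214 of 13362 genes (98.9%). The fits were tested on simulated counts with known changes.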

Additional observations from a re-analysis of the deposited data

How the results depend on the processing

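The count of genes called between libraries 3 and 1 (3394) was 746 with a log2 difference of at least 1 and 1708 without the pair numbered 2. Leaving out 1 library at a time gave 1383 to 4504 (1505 without control replicate 2, 1383 without siNemp1 replicate 2, 1506 without control replicate 1, 2247 without siNemp1 replicate 1); it stayed within 1.5 times under other scalings, filters, DESeq2 (2540) and all 10 libraries (4827). The genes apart in both treatments numbered 367 higher and 111 lower at 2-fold, and 798 and 424 with at least 5 CPM. Over the same single-library omissions the list medians ranged from 0.88 to 1.08 (inflammatory), 0.71 to 1.25 (p53), −0.72 to −0.39 (mitotic), −0.98 to −0.47 (mitochondrially encoded) and 0.01 to 0.34 (nuclear-encoded respiratory chain). With 1 library left out the NRF2 median (0.18) ranged from −0.019 (without control replicate 1) to 0.30, with −0.014 without control replicate 3, and the interferon median (−0.05) was 0.17 without siNemp1 replicate 1; the cause was not tested.

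The treatment test at 120 kPa called 0 genes, 1255 with the replicate block, 12 without a filter, 70 with DESeq2, 0 to 1 with 1 library left out, and 1395 with the block and length and GC trends removed, an alternative added after the data were seen. At 10 kPa the 11 calls became 0 without the treatment term, 7 with DESeq2's size factors, 17 with upper-quartile scaling, 42 without a filter, 1 with at least 5 CPM and 1 with DESeq2. The 1 gene called between all stiff and soft libraries became 1629, 2088 and 4912 with the stiff pair numbered 1, 2 or 3 alone, also added after the data were seen. With 1 library per number and treatment, precision rests on 2 residual degrees of freedom.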
